A study of Mus musculus with 3 samples.

Results

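Macrophages of the fetal mouse thymus were described through 10 genes: C1qa, C1qb, C1qc, Apoe, Csf1r, Csf1, Il34, Mrc1, Lyve1 and Fcrls. They are genes of fetal macrophages and of the growth factor axis that maintains them, named 1 by 1 out of 27998 genes counted in 3 single-cell libraries. Their unique molecular identifiers (UMIs) were counted in cells with a C1qa UMI, in the other cells with a Ptprc UMI (Ptprc encodes CD45, the surface protein of nucleated blood cells) and, for the ligands Csf1 and Il34, in stromal cells.

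Macrophages settle in fetal organs from the yolk sac and the fetal liver, before the bone marrow forms, and in the thymus they take up the thymocytes that die during development. Their survival depends on Csf1r, a receptor tyrosine kinase that is bound by the cytokines Csf1, made mainly by mesenchymal and endothelial cells, and Il34, made by keratinocytes and other epithelial cells and by neurons. Resident macrophages are known for making C1q, the recognition protein of the classical complement pathway, and apolipoprotein E, and for scavenger receptors that take up dead cells and matrix fragments.

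The study examined thymuses of C57BL/6 embryos at gestation days 13 to 13.5. The groups were wild-type controls, Tbx1 neo2/neo2 embryos, which carry a neomycin cassette in intron 5 of both copies of Tbx1, a gene of pharyngeal development, and Foxn11089/1089 embryos, which carry a small deletion in both copies of Foxn1, the transcription factor of thymic epithelium. Each genotype had 1 droplet library read from the 3′ ends of transcripts, the number of embryos in a library is not given, and so no difference between genotypes has a replicate check. Values of the libraries are given below in the order control, Tbx1 neo2/neo2, Foxn11089/1089, and all intervals are exact 95% intervals that cover counting error only.

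The libraries held 6410, 5759 and 12447 barcodes with 82936619, 137498422 and 204655055 UMIs. After filters on detected genes (200 or more) and on the mitochondrial share of UMIs (below 20%), the 5932, 5516 and 11772 cells kept had medians of 13410.0, 20732.5 and 14652 UMIs. Mitochondrial genes gave medians of 2.59%, 5.80% and 5.03% of a kept cell's UMIs. Of the barcode sequences, 17 were shared by the control library and the library labelled Tbx1 neo2/neo2, 18 by the control and Foxn11089/1089 libraries and 28 by the last 2 libraries.

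The targeted genes were examined as a check of the labels. Tbx1 stood at 1.39 UMIs per 1000000 UMIs (CPM; interval 1.15 to 1.67) in the control library, 4.81 (4.44 to 5.19) for the library labelled Tbx1 neo2/neo2 and 5.43 (5.12 to 5.76) in the Foxn11089/1089 library, so that the targeted gene was not lower under its own label. Foxn1 stood at 38.4, 34.6 and 76.5 CPM and was not lower in the Foxn11089/1089 library either, where a small deletion may leave the 3′ end of the transcript in place and a 3′ tag outside the deleted part checks nothing. The log2 ratio of Tbx1 to the control library was 1.79 (1.498 to 2.09) under its own label. That value is not in the direction of the label, but Tbx1 also stood above control in the Foxn11089/1089 library, where it was not targeted. A level over whole libraries of differing cell make-up, read from 3′ tags, cannot decide whether the label is right. The library is therefore named only by how it was labelled.

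C1qa encodes the A chain of C1q and served to find the cells. At least 1 C1qa UMI was found in 103 of 5932, 125 of 5516 and 253 of 11772 kept cells, which is 1.74% (1.42 to 2.10), 2.27% (1.89 to 2.69) and 2.15% (1.89 to 2.43). The shares were 1.31 times (0.997 to 1.71) and 1.24 times (0.981 to 1.57) that of the control library, and both intervals include 1. As depth per cell differed between libraries, the shares were also taken among cells with at least 2000 UMIs, where the ratios were 1.79 (1.29 to 2.49) and 1.46 (1.10 to 1.95) and both intervals lie above 1. After each of those cells was thinned to 2000 UMIs they were 1.82 (1.24 to 2.70) and 1.12 (0.787 to 1.61), so whether the shares differ from control depended on the processing. Some of the C1qa-positive cells lay in the clusters of red blood cells: 1 cell of the control library, 1 under the Tbx1 label and, in the Foxn11089/1089 library, 5 cells in a cluster led by Hbb-bs and 8 in a cluster led by Hba-x, 7 of these with a single C1qa UMI. The red blood cells used below for other genes (347, 359 and 1998 cells, with medians of 8082, 18571 and 12415 UMIs) were taken without a C1qa or Ptprc UMI, so they say nothing of C1qa.

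The C1qa-positive cells were of several kinds. A C1qa count of 10 or more was found in 40, 50 and 82 of them, and these cells held 91.7%, 95.7% and 94.1% of the C1qa UMIs of the C1qa-positive cells. Of those high-count cells 27, 42 and 75 had a Ptprc UMI, and their median number of detected macrophage markers was 9.5, 10 and 10 of 10 (Tyrobp, Fcer1g, Aif1, Ctss, Ms4a7, Lyz2, Pf4, Adgre1, Cd68 and Cx3cr1). At least 3 of those markers were found in 79, 97 and 155 of all C1qa-positive cells, so cells with fewer C1qa UMIs carried them too. Likely doublets were 4, 5 and 31 of the high-count cells.

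Cells with 1 C1qa UMI numbered 43, 41 and 119. They held 3.35%, 1.08% and 2.33% of the C1qa UMIs but 43.5%, 34.3% and 44.9% of all UMIs of the C1qa-positive cells, and a median of 3, 2 and 1 of the 10 macrophage markers. Sums over all C1qa-positive cells therefore contain much RNA of cells with few macrophage markers.

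In a clustering built without the 10 genes, 82, 96 and 151 of the C1qa-positive cells lay in a cluster led by C1qb, Apoe, C1qc, C1qa, Pf4 and Lyz2. It is called macrophage-like here, and 21, 29 and 102 C1qa-positive cells lay elsewhere. At the higher resolution of 0.8, a cluster of 546 cells was led by C1qb and Apoe. Another, of 53 cells, was led by Pf4, Ppbp, Ctla2a and Treml1, so Pf4 did not mark the C1qb-led cells alone. The macrophage-like cluster was shallow, with a median of 1408 UMIs over all its cells, and medians of 4227, 4361 and 8309 UMIs over its C1qa-positive cells. Counted in that cluster alone, the share of C1qa-positive cells was 1.38%, 1.74% and 1.28%, or 1.26 times (0.928 to 1.71) and 0.928 times (0.705 to 1.23) that of the control library. The larger share in the Foxn11089/1089 library thus lay outside the macrophage-like cluster, where it was 2.45 times (1.52 to 4.12) that of the control library.

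**Figure D1:**
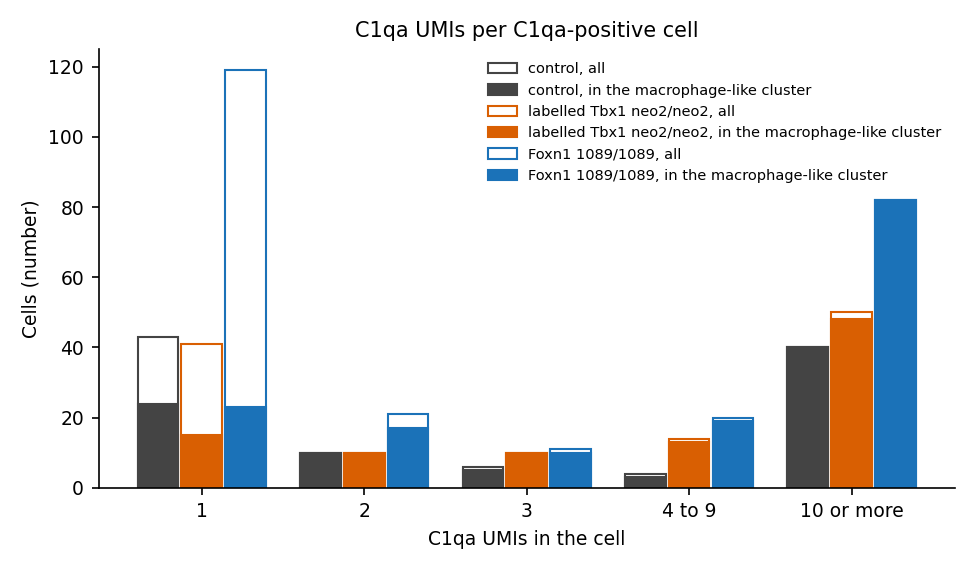
Number of C1qa-positive cells (vertical axis) by the C1qa UMIs of the cell (horizontal axis), with 1 bar per library side by side in each class of counts. The filled part of each bar is cells of the macrophage-like cluster and the open part is cells of other clusters. Cells with 1 C1qa UMI and cells with 10 or more form the tallest bars in each library, and 40 of 40, 48 of 50 and 82 of 82 cells with 10 or more lie in the macrophage-like cluster.

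Csf1, the broadly made ligand of the receptor, was counted in stromal cells without a C1qa or Ptprc UMI. Mesenchymal cells (1381, 1846 and 3193 cells) held 143, 482 and 362 Csf1 UMIs, or 10.2 CPM (8.63 to 12.1), 9.76 CPM (8.91 to 10.7) and 7.33 CPM (6.60 to 8.13). The log2 ratio to the control library was −0.07 (−0.34 to 0.21) for the library labelled Tbx1 neo2/neo2 and −0.48 (−0.76 to −0.19) for the Foxn11089/1089 library. Csf1 in mesenchyme was thus close to control under the former label and lower in the latter. The median log2 ratio over all genes of these cells was 0.38 and 0.16, and relative to it the Csf1 ratios were −0.45 and −0.64. Neither passed 2-fold, which 23.2% and 12.4% of 14718 genes did.

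A Csf1 UMI was found in 8.98%, 19.4% and 9.52% of mesenchymal cells, whose median depths were 9645, 24805.5 and 14128 UMIs. After thinning to 2000 UMIs the shares were 1.70%, 2.26% and 1.16%. Red blood cells, which should lack the transcript, held Csf1 UMIs in none of 347, none of 359 and 2 of 1998 cells, or up to 0.865%, up to 0.836% and 0.100%.

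The largest mesenchymal cluster differed between libraries. A cluster led by Igf1 was the largest in the control and Foxn11089/1089 libraries (821 and 1913 cells, against 533), while a cluster led by Ibsp was the largest for the library labelled Tbx1 neo2/neo2 (732 cells, against 202 and 367). Csf1 stood at 9.51, 8.66 and 6.68 CPM in the Igf1-led cluster and at 15.7, 12.04 and 16.6 CPM in the Ibsp-led cluster. The log2 ratio of the Foxn11089/1089 library was −0.51 (−0.91 to −0.10) in the former and 0.08 (−0.57 to 0.78) in the latter. Whether these ratios differ between the clusters was not tested.

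Csf1 was found in the remaining mesenchymal clusters as well. A cluster led by Mxd3, a gene of dividing cells, held 304, 346 and 804 cells with 7.97, 10.2 and 5.32 CPM of Csf1. A cluster led by Upk3b and Wt1, genes of mesothelium, held only 35, 40 and 65 cells with 31.8 (15.9 to 56.9), 24.1 (16.2 to 34.7) and 11.8 CPM (6.61 to 19.5), a log2 ratio of −1.43 (−2.65 to −0.16) in the Foxn11089/1089 library. An Acta2-led cluster had 19, 195 and 44 cells. Csf1 was at 3.51 and 11.3 CPM in the cells of the other libraries, and its 19 control cells held no Csf1 UMI, which allows up to 14.2 CPM.

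Endothelial cells (66, 190 and 156) held 8, 47 and 54 Csf1 UMIs, or 9.64 CPM (4.16 to 19.0), 12.2 CPM (8.96 to 16.2) and 9.11 CPM (6.84 to 11.9). Their log2 ratios of 0.34 (−0.76 to 1.63) and −0.08 (−1.16 to 1.20) show no difference detectable at this depth, with all-gene medians of 0.40 and 0.22 and 30.8% and 20.6% of 10642 genes past 2-fold. The control value rests on 8 molecules.

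Epithelial cells (1995, 673 and 3188) were the other large source of Csf1, with 123, 177 and 205 UMIs, or 3.72, 5.25 and 2.66 CPM. The log2 ratio was 0.50 (0.16 to 0.84) for the library labelled Tbx1 neo2/neo2, which was 0.10 relative to the all-gene median of 0.40. For the Foxn11089/1089 library it was −0.49 (−0.82 to −0.15), or −0.68 relative to the median of 0.20. In both stromal classes Csf1 was lower in the Foxn11089/1089 library than in the control library, by less than 2-fold.

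By share of all Csf1 UMIs of a library, mesenchyme gave 48.8%, 59.95% and 51.0%, epithelium 42.0%, 22.01% and 28.9% and endothelium 2.73%, 5.85% and 7.61%. Over all kept cells Csf1 stood at 3.58, 5.89 and 3.50 CPM, log2 ratios of 0.72 (0.52 to 0.92) and −0.03 (−0.23 to 0.17).

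Il34, the other ligand, binds the same receptor without sequence similarity to Csf1, and it was an epithelial transcript here. Epithelial cells held 69, 64 and 72 UMIs, which were 89.6%, 75.3% and 82.8% of all Il34 UMIs of the libraries. Their levels were 2.09 CPM (1.62 to 2.64), 1.90 CPM (1.46 to 2.42) and 0.933 CPM (0.730 to 1.17). Il34 was thus at a like level in the first pair of libraries and lower in the Foxn11089/1089 library, with log2 ratios of −0.14 (−0.65 to 0.38) and −1.16 (−1.66 to −0.66), or −0.54 and −1.36 relative to the all-gene medians. In epithelium 20.4% and 21.8% of 14887 genes were past 2-fold, and Il34 was past it in the Foxn11089/1089 library.

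The Il34 counts were small in each epithelial cluster. In the Krt5-led cluster, with keratins of basal epithelium among its leading genes, 354, 153 and 718 cells held 30, 40 and 33 Il34 UMIs, or 5.04, 5.49 and 1.79 CPM. In the Ccl25-led cluster, with Psmb11 and Prss16 of cortical thymic epithelium, the levels were 2.58, 2.20 and 1.14 CPM, and in the Six2-led cluster 1.10, 0.498 and 0.380 CPM. The Foxn11089/1089 library was below the control library in each of the 3 clusters, with log2 ratios of −1.49 (−2.25 to −0.73), −1.18 (−2.14 to −0.17) and −1.53 (−2.60 to −0.51).

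An Il34 UMI was found in 3.26%, 6.69% and 1.98% of epithelial cells, whose median depths were 16110.0, 45714 and 21296 UMIs. After thinning they were 14 of 1979, 1 of 655 and 9 of 3187 cells (0.707%, 0.153% and 0.282%), and no red blood cell held an Il34 UMI. Mesenchymal cells held 2, 5 and 4 Il34 UMIs (log2 ratios −0.50, interval −3.11 to 2.89, and −0.82, −3.62 to 2.65), so mesenchymal Il34 was too sparse to compare. Endothelial cells held 0, 1 and 0, where the counts of 0 allow up to 3.61 and 0.506 CPM.

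**Figure D2:**
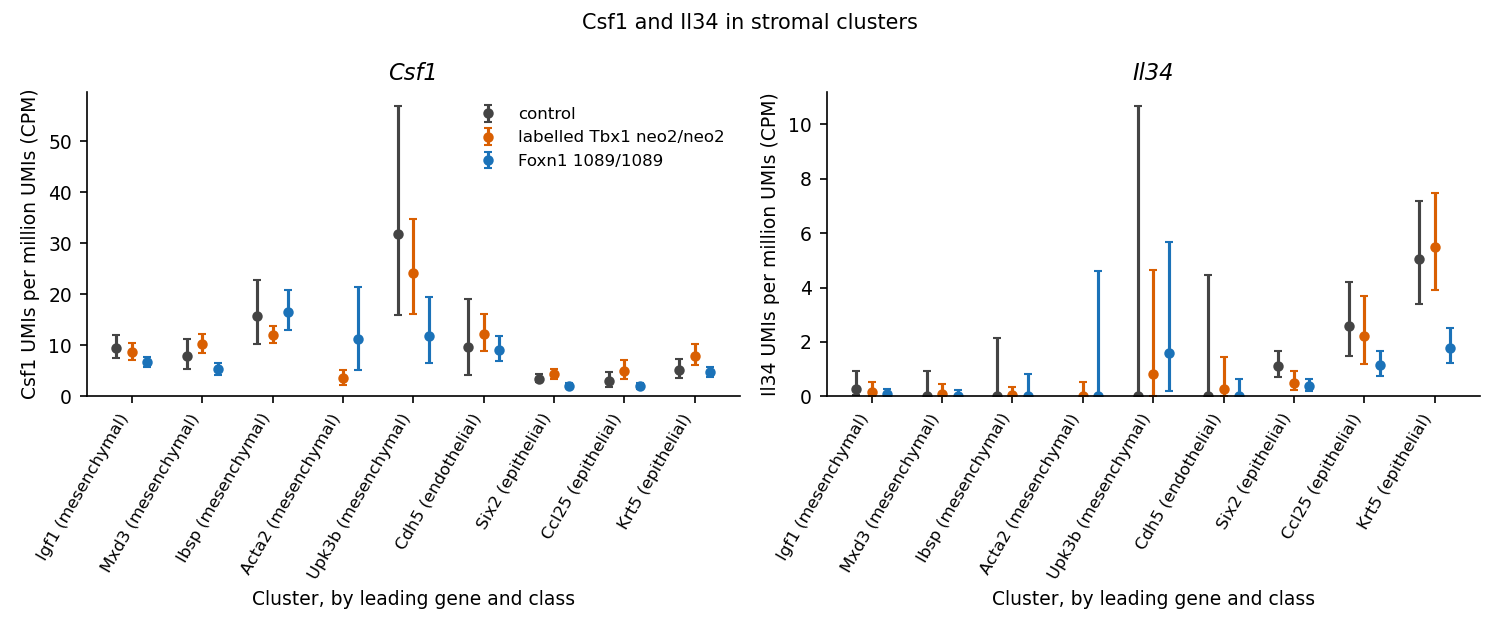
Level of Csf1 (left panel) and Il34 (right panel) in CPM by stromal cluster and library; points are UMI sums over the cells of a cluster divided by all their UMIs, and bars are exact Poisson intervals (the Acta2-led cluster of the control library, with 19 cells, is not drawn). Il34 lies highest in the Krt5-led epithelial cluster, at 5.04, 5.49 and 1.79 CPM, while Csf1 is found in every cluster drawn.

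Few ligand UMIs lay in the C1qa-positive cells, a small set. They held 2, 19 and 18 Csf1 UMIs, or 2.08, 6.04 and 3.82 CPM, whose log2 ratios were 1.53 (−0.52 to 4.68) and 0.87 (−1.19 to 4.03). For Il34 the counts were 2, 7 and 3 UMIs, or 2.08, 2.22 and 0.637 CPM, whose log2 ratios were 0.09 (−2.30 to 3.40) and −1.71 (−4.84 to 1.87). All those intervals include 0, and the levels per RNA were near those of epithelium. In the macrophage-like cluster alone the counts fell to 0, 7 and 8 Csf1 UMIs and 1, 0 and 3 Il34 UMIs, so part of the ligand UMIs of C1qa-positive cells lay in cells of other clusters.

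Csf1r, the receptor of both ligands, was counted next. In C1qa-positive cells it had 314, 1549 and 1070 UMIs, which were 327 CPM (292 to 365), 492 CPM (468 to 517) and 227 CPM (214 to 241). The library labelled Tbx1 neo2/neo2 lay above the control library and the Foxn11089/1089 library below it, and the 3 intervals do not overlap. The log2 ratios were 0.59 (0.41 to 0.77) and −0.53 (−0.71 to −0.34), but over the alternatives the latter ran from −0.67 to 0.17, so its direction depended on the processing. Over 11092 genes with at least 30 UMIs in these cells the median log2 ratio was 0.30 and 0.17, which scaling by median-of-ratios size factors would move toward 0, and relative to these medians Csf1r changed by 0.29 and −0.70.

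Of the 10 members, 9 had at least 30 UMIs in C1qa-positive cells (Il34 did not), C1qa being the gene that chose the cells. Of the 9, 4 were at least 2-fold above the control library for the library labelled Tbx1 neo2/neo2 (Csf1, Mrc1, Lyve1 and Fcrls) and none was 2-fold below, where 21.7% of the 11092 genes were past 2-fold (17.5% up and 4.23% down). None of the 9 was past 2-fold in the Foxn11089/1089 library, where 21.2% of the genes were (15.2% up and 5.98% down). For these calls 0.5 UMI was added to both sums, and the Csf1 call rests on 2 and 19 UMIs. With size factors 1 member was past 2-fold in each of the other libraries. The share of all genes under that scaling is not given, so this count is not set against other genes.

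A Csf1r UMI was found in 50.5%, 52.0% and 36.4% of the C1qa-positive cells, whose median depths were 8906, 18257 and 15331 UMIs. With 2000 UMIs drawn per cell, for which 36, 36 and 64 cells were too shallow, it was found in 31 of 67, 43 of 89 and 47 of 189 cells (46.3%, 48.3% and 24.9%). Among red blood cells the share was 0% (up to 0.865%), 0.557% and 0.100%.

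C1qa-positive cells of the macrophage-like cluster held 313, 1527 and 1066 Csf1r UMIs, nearly all of those above, and stood at 556, 911 and 428 CPM. The log2 ratios were 0.71 and −0.38, or 0.43 and −0.64 relative to the all-gene medians of 0.28 and 0.26, and the order of the libraries was as in all C1qa-positive cells. Of the members, 8 were measured there. At least 2-fold higher were 3 of them for the library labelled Tbx1 neo2/neo2 (24.5% of 9192 genes were past 2-fold) and none for the Foxn11089/1089 library (23.0%). The thinned share of cells with Csf1r was 66.0%, 67.2% and 49.5%, and the median over cells with at least 2000 UMIs was 543, 744 and 402 CPM. Without likely doublets in this cluster, an alternative added after seeing the data, the Csf1r ratio of the Foxn11089/1089 library turned to 0.17 (−0.03 to 0.38), so its lower Csf1r depended on cells marked as likely doublets.

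Signals of the receptor run through adaptors, PI3-kinase and the Tyrobp-Syk route, and Spi1 encodes PU.1, the transcription factor that drives Csf1r. Of 17 genes of this pathway 16 were measured in C1qa-positive cells. Of these 5 were at least 2-fold up for the library labelled Tbx1 neo2/neo2 (Csf1, Sos1, Pik3cg, Cbl and Syk) and 1 down, where 17.5% of all genes were up and 4.23% down, and the median was 0.75 against 0.30 for all genes. The Csf1 call again rests on 2 and 19 UMIs. For the Foxn11089/1089 library 1 was up (Sos1) and 3 were down (Tyrobp and Socs1 among them), where 15.2% of all genes were up and 5.98% down, and the median was −0.22 against 0.17.

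The 4 most abundant genes of that pathway did not move as 1 group. Tyrobp, an adaptor of activating receptors, stood at 1842, 983 and 776 CPM and was lower than control in both other libraries, whereas Csf1r was higher in the first of them. Spi1 stood at 239.6, 217 and 153 CPM. Grb2, an adaptor that links receptor kinases to Ras, stood at 122, 148 and 128 CPM.

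C1qb and C1qc, the B and C chains of C1q, lie next to C1qa in the genome. In C1qa-positive cells C1qb had 2157, 5029 and 5687 UMIs, or 2247 CPM (2153 to 2344), 1598 CPM (1554 to 1642) and 1207 CPM (1176 to 1238). The level was highest in the control library and lowest in the Foxn11089/1089 library, with no overlap of the intervals. The size depended on the processing: over the alternatives the log2 ratio ran from −0.75 to −0.17 and, in the Foxn11089/1089 library, from −1.04 to −0.29. The log2 ratios were −0.49 (−0.57 to −0.42) and −0.90 (−0.97 to −0.82), or −0.79 and −1.07 relative to the all-gene medians.

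C1qc followed the same order, at 1671 CPM (1590.0 to 1755), 1321 CPM (1281 to 1362) and 937 CPM (910.0 to 966). Its log2 ratios were −0.34 (−0.42 to −0.25) and −0.83 (−0.92 to −0.75), and over the alternatives they ran from −0.60 to −0.08 and from −0.98 to −0.22. C1qa itself, which chose the cells and is given as a description only, stood at 1336, 1201 and 1083 CPM. Within the macrophage-like cluster the differences were smaller: C1qb stood at 3817, 2930.3 and 2263 CPM (log2 ratios −0.38 and −0.75) and C1qc at 2836, 2422 and 1761 CPM (−0.23 and −0.69). Per cell with at least 2000 UMIs in that cluster, the median of C1qb was 4267, 2840.1 and 2654 CPM.

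C1q was also summed over the whole library. Over all kept cells C1qa was at 15.7, 27.7 and 25.2 CPM, C1qb at 27.3, 37.9 and 29.1 CPM and C1qc at 20.1, 31.1 and 22.4 CPM. C1qb and C1qc thus stood above control per RNA of the whole library and below it per RNA of the C1qa-positive cells.

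The complement list had 15 genes, of which 11 were measured in C1qa-positive cells. None was 2-fold up in either comparison, and 2 were 2-fold down in the library labelled Tbx1 neo2/neo2 (C3, the central component, and Cfp, or properdin). Of all genes 17.5% were up and 4.23% down there, and 15.2% and 5.98% in the comparison of the Foxn11089/1089 library. The list's median log2 ratio was 0.04 and −0.30, below the all-gene medians of 0.30 and 0.17. After the C1q chains its most abundant gene was C3ar1, the receptor of the C3a fragment, at 153, 215 and 166 CPM.

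Apoe carries cholesterol and other lipids out of macrophages. In C1qa-positive cells it had 4746, 23421 and 28547 UMIs, or 4944 CPM (4804 to 5086), 7440.2 CPM (7345 to 7536) and 6057 CPM (5987 to 6128). Both other libraries lay above the control library, with log2 ratios of 0.59 (0.54 to 0.64) and 0.29 (0.25 to 0.34), or 0.29 and 0.12 relative to the all-gene medians. Over the alternatives these ran from 0.33 to 0.86 and from 0.15 to 1.01. Apoe therefore moved opposite to C1qb and C1qc in the same cells.

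Apoe stood, among macrophage-like cells, at 8392, 13769 and 11351 CPM, log2 ratios of 0.71 and 0.44. Among its cells with at least 2000 UMIs the lowest was at 409, 1017 and 362 CPM, the median at 7996, 12345 and 11604 CPM and the highest at 29593, 52993 and 54577 CPM, and the ranges of the libraries overlapped. An Apoe UMI was found in 91.3%, 88.0% and 78.7% of C1qa-positive cells and in 0.288%, 5.01% and 4.25% of red blood cells, where its source was not tested.

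Lipid and iron handling was listed with 12 genes, 11 of them measured. There were 3 at least 2-fold up for the library labelled Tbx1 neo2/neo2 (Abca1, a cholesterol exporter, Hmox1, heme oxygenase, and Slc40a1, the iron exporter ferroportin) and 1 was down (Pltp), against 17.5% and 4.23% of all genes, with a list median of −0.44 against 0.30. Up in the Foxn11089/1089 library was 1 (Hmox1), while 3 were down (Apoc1, Abcg1 and Pltp), against 15.2% and 5.98% of all genes, with a list median of −0.53 against 0.17. Besides Apoe the most abundant genes were the ferritin chains Ftl1, at 14728, 7664 and 8194 CPM, and Fth1, at 8186, 4353 and 5599 CPM, and Blvrb, a biliverdin reductase, at 353, 217 and 244 CPM, all of which stood below control in both other libraries.

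Mrc1 encodes the mannose receptor CD206, which takes up glycoproteins. In C1qa-positive cells it had 143, 1072 and 731 UMIs, or 149 CPM (126 to 175), 341 CPM (320.5 to 362) and 155 CPM (144 to 167). The 11, 13 and 26 cells with most Mrc1 held 65.0%, 68.1% and 69.2% of these UMIs, a spread that the intervals do not cover. By counting error alone, the library labelled Tbx1 neo2/neo2 stood apart from the other pair, whose intervals overlap. Its 2-fold call depended on the processing, as the log2 ratio ran from 0.47 to 1.41 over the alternatives, and that of the Foxn11089/1089 library ran from −0.39 to 0.63, so no direction is given for the latter. The log2 ratios were 1.19 (0.94 to 1.45) and 0.06 (−0.20 to 0.33), or 0.90 and −0.11 relative to the all-gene medians. Within the macrophage-like cluster its levels were 252, 627 and 293 CPM, with ratios of 1.31 (1.06 to 1.58) and 0.22 (−0.05 to 0.48).

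Lyve1, a hyaluronan receptor, marks lymphatic endothelium and a subset of tissue macrophages near vessels. In C1qa-positive cells it had 27, 569 and 76 UMIs, or 28.1 CPM (18.5 to 40.9), 181 CPM (166 to 196) and 16.1 CPM (12.7 to 20.2). Its log2 ratio was 2.68 (2.13 to 3.30) for the library labelled Tbx1 neo2/neo2, or 2.39 relative to the all-gene median, the widest change of any member there. For the Foxn11089/1089 library it was −0.80 (−1.45 to −0.11), which turned to 0.02 (−1.62 to 1.90) after thinning and to 0.16 (−0.52 to 0.88) in macrophage-like cells without likely doublets.

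Few cells carried Lyve1. Its UMIs came from 9, 19 and 10 C1qa-positive cells, of which the highest held 10, 179 and 26 UMIs. Of these cells 8, 17 and 9 had 10 or more C1qa UMIs and 7, 17 and 10 also had an Mrc1 UMI. A Prox1 UMI was found in 0, 3 and 0 of them. Cells with 10 or more C1qa UMIs were also deeper, with medians of 11375, 30493 and 24707.5 UMIs. Over all C1qa-positive cells the medians were 8906, 18257 and 15331 UMIs, and the part of depth in these counts was not tested. Lyve1 was found mostly in cells with high C1qa that also carried Mrc1, but Mrc1 was common without Lyve1 too. Of 47, 64 and 93 C1qa-positive cells of the macrophage-like cluster with at least 2000 UMIs, 24, 29 and 64 had Mrc1 and no Lyve1. The share of C1qa-positive cells with a Lyve1 UMI was 8.74%, 15.2% and 3.95%, and 3 of 67, 12 of 89 and 5 of 189 cells (4.48%, 13.5% and 2.65%) after thinning, while no red blood cell held one. None lay outside the macrophage-like cluster among 21, 29 and 102 cells, which allows shares of up to 14.3%, 10.3% and 2.94%.

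Endothelium was the other place of Lyve1, with 24, 48 and 3 UMIs in 1, 8 and 3 of 66, 190 and 156 cells. All 24 control UMIs lay in 1 cell, which also held UMIs of the lymphatic genes Prox1 and Flt4. Of the 8 cells for the library labelled Tbx1 neo2/neo2 6 had a Prox1 UMI and the highest held 23 Lyve1 UMIs. No level of Lyve1 in endothelium is compared, as 1 cell decides the control value.

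Fcrls, an Fc receptor-like protein with a scavenger receptor domain, is known from microglia and other resident macrophages of the mouse. In C1qa-positive cells it had 226, 1514 and 1014 UMIs, or 235 CPM (206 to 268), 481 CPM (457 to 506) and 215 CPM (202 to 229). As for Mrc1, the library labelled Tbx1 neo2/neo2 was high and the other pair overlapped, with log2 ratios of 1.03 (0.83 to 1.24) and −0.13 (−0.34 to 0.08), or 0.74 and −0.30 relative to the all-gene medians. Over the alternatives these ran from 0.77 to 1.24 and from −0.41 to 0.56, so the 2-fold call of the former depended on the processing and no direction is given for the latter. Among macrophage-like cells Fcrls stood at 402, 885 and 405 CPM, with ratios of 1.14 and 0.01.

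The share of C1qa-positive cells with an Fcrls UMI was 46.6%, 60.8% and 37.2%, and 28.4%, 52.8% and 26.5% after thinning. For Mrc1 it was 37.9%, 40.8% and 30.8%, and 22.4%, 31.5% and 19.6% after thinning. Red blood cells held Mrc1 in at most 0.836% and Fcrls in at most 0.279% of the cells of a library where either was found. Among 47, 64 and 93 thinned C1qa-positive cells of the macrophage-like cluster, Mrc1 and Fcrls were found together in 8, 23 and 24, and of the 3, 12 and 5 cells with Lyve1, 2, 9 and 5 also had Mrc1.

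**Figure D3:**
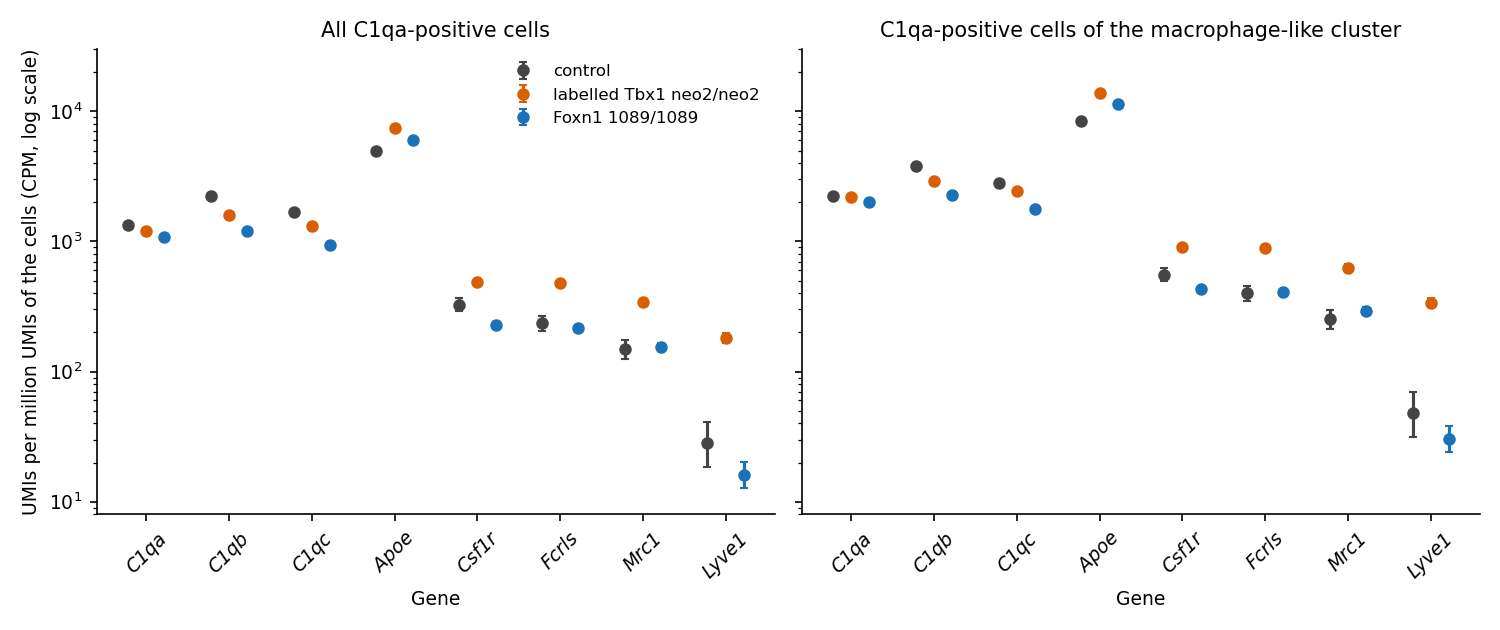
Levels of 8 of the 10 genes in CPM on a log axis by library, in all C1qa-positive cells (left panel) and in those of the macrophage-like cluster (right panel); points are UMI sums divided by all UMIs of the cells, and bars are exact Poisson intervals. Mrc1, Lyve1 and Fcrls lie highest in the library labelled Tbx1 neo2/neo2, while C1qb and C1qc lie highest in the control library; Csf1 and Il34, with 19 UMIs or fewer per library, are not drawn.

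Genes of scavenging and of dead-cell uptake were listed with Mrc1 and Lyve1 among them. Of 17 listed 15 were measured, and 8 were at least 2-fold up in the library labelled Tbx1 neo2/neo2: Mrc1, Lyve1, Stab1, Mertk, Axl, Gas6, Lgmn and Ctsd. None was down, where 17.5% of all genes were up and 4.23% down, and the list median was 1.02 against 0.30 for all genes. None was past 2-fold in either direction for the Foxn11089/1089 library, against 15.2% up and 5.98% down of all genes, and the median was 0.17, as for all genes.

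The most abundant of them were lysosomal proteases, which digest what macrophages take up. Ctsb stood at 1425, 1975 and 949.5 CPM, Ctsd at 609, 1356 and 691 CPM and Lgmn at 352, 925 and 473 CPM. Stab1, a scavenger receptor, stood at 222, 509 and 166 CPM. Among macrophage-like cells 10 of the 15 were up and none was down in the library labelled Tbx1 neo2/neo2, where 18.2% of all genes were up and 6.30% down, with a median of 1.31 against 0.28.

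Resident macrophage identity was listed with 19 genes, 17 of them measured in C1qa-positive cells. Up for the library labelled Tbx1 neo2/neo2 were 4 (Fcrls, Maf, F13a1 and Fcgr3), with none down, where 17.5% of all genes were up and 4.23% down, and the median was 0.35 against 0.30. Up for the Foxn11089/1089 library was 1 (Id3), and 2 were down (Ccr2 and Csf2ra), where 15.2% of all genes were up and 5.98% down, with a median of −0.13 against 0.17. Besides Fcrls, abundant genes of the list included Id3, a transcriptional inhibitor, at 228, 164 and 464 CPM, and Maf, a macrophage transcription factor, at 197, 419 and 200.3 CPM.

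Of 8 cell cycle genes all were measured, and 1 (Mki67) was at least 2-fold up and none down in each comparison, at 84.4, 200.5 and 186 CPM, where 17.5% and 15.2% of all genes were up and 4.23% and 5.98% down. The list medians were 0.57 and 0.26, against 0.30 and 0.17. Top2a, a topoisomerase of dividing cells, stood at 215, 349.8 and 321 CPM, Birc5 at 289.6, 219 and 237 CPM and Cdk1 at 193, 189.97 and 229 CPM.

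Among 3445 well-counted genes of C1qa-positive cells, the highest log2 ratios in the library labelled Tbx1 neo2/neo2 were those of Igfbp5 (2.68), F13a1 (2.33), Rps12-ps3 (1.92), Kcnq1ot1 (1.87) and Krt5 (1.83). F13a1, the A chain of coagulation factor XIII, made by macrophages, stood at 52.1, 261 and 72.1 CPM. Krt5 is an epithelial keratin. The lowest were Hist1h1b (−3.99), Lars2 (−3.77), Hist1h2ae (−3.07), Hist1h1e (−3.02) and Nr2f2 (−2.69), of which 3 are histone genes.

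Among 3444 genes the highest for the Foxn11089/1089 library were Id1 (2.86), Gstm1 (2.81), Meg3 (2.45), Igfbp5 (2.31) and Zfp503 (2.03), and the lowest Lars2 (−4.20), Hist1h1b (−3.62), Cd3g (−3.54), Ifitm1 (−3.36) and Gzma (−3.29). Cd3g belongs to the T cell receptor complex, and Gzma encodes a granzyme. Within the macrophage-like cluster F13a1 was the highest in the library labelled Tbx1 neo2/neo2 (2.46), with Dab2, an endocytic adaptor, among the 5 highest (1.83), and Mdk, a growth factor, was the highest in the Foxn11089/1089 library (2.49).

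Markers of other cell types were present in the C1qa-positive cells and moved with the comparisons. Red blood cell markers summed to 5456, 11559 and 22697 CPM, with Hba-a1 the most abundant, and 3 and 5 of 6 were at least 2-fold up. Of all genes 17.5% and 15.2% were up and 4.23% and 5.98% down. Mesenchymal markers summed to 498, 701 and 1099 CPM (Col3a1 the most abundant), with 1 and 5 of 7 up. Epithelial markers summed to 1358, 1548 and 1143 CPM (Krt18), with 2 and 2 of 7 up and, in the Foxn11089/1089 library, 1 down. The part of these cells' RNA in the member ratios was not tested.

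Thymocyte markers summed to 228, 292 and 53.5 CPM (Cd3g), with 5 of 6 down in the Foxn11089/1089 library and none past 2-fold in the library labelled Tbx1 neo2/neo2. For this and the next lists, 15.2% of all genes were up and 5.98% down in the former library, and 17.5% and 4.23% in the latter. Dendritic markers summed to 272, 352 and 168 CPM (Cd74), with 3 and 1 of 4 measured up. Innate lymphoid markers summed to 44.8, 108 and 9.97 CPM (Gzmb), with Il2rb at 0. Of 3 measured, 1 was up (Gzmb) and 1 down (Ccl5) in the library labelled Tbx1 neo2/neo2, and all 3 were down in the Foxn11089/1089 library (Ccl5, Gzmb and Cpa3). Monocyte or neutrophil markers summed to 15.6, 20.01 and 7.64 CPM (Ccr2), with Ly6c2, Elane and Ngp at 0, so the defining transcripts of those cells were scarce, and both measured (Ccr2 and Mpo) were down in the Foxn11089/1089 library. The macrophage markers themselves summed to 7246, 5706 and 4016 CPM (Fcer1g), with 2 of 10 up in the library labelled Tbx1 neo2/neo2 (Adgre1 and Cx3cr1) and 3 down in the Foxn11089/1089 library (Tyrobp, Fcer1g and Pf4).

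Endothelial markers summed to 59.4, 50.2 and 124 CPM (Ramp2), with 1 of 6 measured up and 2 down in the library labelled Tbx1 neo2/neo2 and 4 up in the Foxn11089/1089 library. In these comparisons 17.5% and 15.2% of all genes were up and 4.23% and 5.98% down. Lymphatic endothelial markers, which bear on Lyve1, summed to 20.8, 52.1 and 174 CPM (Ccl21a), with 2 of 3 measured up in each comparison and the other, Pdpn, down in the library labelled Tbx1 neo2/neo2. Pericyte markers summed to 115, 463 and 71.3 CPM (Acta2). Of 5 measured, 3 were up and 1 down in the library labelled Tbx1 neo2/neo2, and 1 was up and 2 down in the Foxn11089/1089 library. Neural markers summed to 421, 182 and 485 CPM (Stmn2), with 1 of 3 measured up and 1 down in each comparison. Skeletal muscle markers summed to 1.04, 126 and 7.43 CPM (Actc1). These muscle sums were 1, 398 and 35 UMIs, and as the control library held 1 UMI, no call is read from them. The part of all these cell types in the member ratios was not tested.

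The foreign markers differed in the macrophage-like cluster as well. There epithelial markers summed to 592, 47.7 and 661 CPM (Epcam), with 7 of 7 down under the Tbx1 label. Mesenchymal markers summed to 299, 460.4 and 711 CPM (Col3a1), with 4 of 7 up and 1 down under that label. Red blood cell markers summed to 4057, 11125 and 10912 CPM (Hbb-bt), with 4 of 5 measured up under it and none down. The shares of all genes for that comparison were 18.2% up and 6.30% down. Dendritic markers summed to 339, 66.2 and 218 CPM (Cd74), with 4 of 4 measured down for the library labelled Tbx1 neo2/neo2. Their part in the member ratios was not tested there either. Of the C1qa-positive cells 13, 8 and 51 were likely doublets.

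Other Ptprc-positive cells, which by definition held no C1qa UMI, numbered 1161, 405 and 462, with medians of 20795, 61912 and 31369 UMIs. They were mostly thymocyte-like (1089, 349 and 319 cells), with 47, 11 and 78 dendritic-like cells and 4, 0 and 6 in the macrophage-like cluster. Of the members, 5 were measured there. At least 2-fold higher for the library labelled Tbx1 neo2/neo2 were 2 (C1qb and C1qc), where 21.7% of 13580 genes were past 2-fold, and in the Foxn11089/1089 library 3 were higher (C1qb, C1qc and Csf1) and 1 was lower (Apoe), where 28.5% were. Over the alternatives the log2 ratio fell to 0.997 for C1qc in the former library and to 0.95 for Csf1 in the latter. Both are short of 2-fold, so these calls depended on the processing.

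Apoe was the member with most UMIs in these cells, 1606, 1861 and 543, or 68.6 CPM (65.3 to 72.1), 74.8 CPM (71.4 to 78.3) and 33.8 CPM (31.0 to 36.8). It was lower in the Foxn11089/1089 library, with a log2 ratio of −1.02 (−1.16 to −0.88), or −1.39 relative to the all-gene median of 0.37. For the library labelled Tbx1 neo2/neo2 its ratio was 0.12 (0.03 to 0.22), which turned to −0.29 with size factors, so no direction is given. The thymocyte-like cells showed the same, at 69.0, 74.2 and 30.6 CPM. An Apoe UMI was found in 51.2%, 63.5% and 37.9% of these cells, and in 13.1%, 16.2% and 4.79% after thinning, against thinned shares of 0%, 1.42% and 1.16% in red blood cells.

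Csf1r was much scarcer in these cells, with 73, 114 and 60 UMIs, or 3.12 CPM (2.45 to 3.92), 4.58 CPM (3.78 to 5.50) and 3.74 CPM (2.85 to 4.81). The log2 ratios were 0.55 (0.12 to 0.999) and 0.26 (−0.26 to 0.77), or 0.12 and −0.11 relative to the all-gene medians. Thinning took the ratio of 0.55 to 1.76 (−1.36 to 5.35), so its size is not known. A Csf1r UMI was found in 4.996%, 7.90% and 7.58% of the cells and in 0.606%, 1.75% and 0.871% after thinning. Thymocyte-like cells held 50, 55 and 36 of the Csf1r UMIs, at 2.22, 2.42 and 2.87 CPM.

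Dendritic-like cells, which share the receptor with macrophages, held 17, 59 and 19 Csf1r UMIs, or 32.0 CPM (18.7 to 51.3), 125 CPM (95.1 to 161) and 12.4 CPM (7.45 to 19.3). The log2 ratios of 1.96 (1.16 to 2.83) and −1.37 (−2.39 to −0.34) followed the order of the C1qa-positive cells. In the latter cells the lower value of the Foxn11089/1089 library depended on likely doublets. Among the dendritic-like cells 3 of 47, 3 of 11 and 20 of 78 were likely doublets. The value for the library labelled Tbx1 neo2/neo2 rests on 11 cells. The same 11 cells held 42 C1qb UMIs, 11 C1qc UMIs and 119 Apoe UMIs, against 0, 1 and 21 in 47 control cells and 32, 8 and 53 in 78 cells of the Foxn11089/1089 library.

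C1qb and C1qc were near 0 in the other Ptprc-positive cells, with 15, 53 and 42 and with 6, 17 and 19 UMIs, at most 2.62 CPM. Their log2 ratios of 1.73 (0.88 to 2.67) and 2.03 (1.15 to 2.99) for C1qb, and 1.41 (0.003 to 3.04) and 2.21 (0.82 to 3.82) for C1qc, are of sums in which 12 cells or fewer held the gene. Of the 15 control C1qb UMIs, 14 lay in the 4 cells of the macrophage-like cluster. Csf1 had 12, 21 and 21 UMIs, a log2 ratio of 0.72 (−0.37 to 1.88) and 1.35 (0.26 to 2.51). The former ran from −0.46 to 2.23 over the alternatives, so no direction is given for it.

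The scavenger and identity genes were close to absent there. Mrc1 had 1, 0 and 5 UMIs, Lyve1 0, 1 and 4, Fcrls 0, 7 and 10 and Il34 1, 3 and 1, where a count of 0 in the control cells allows up to 0.128 CPM. All 5 Lyve1 UMIs of these cells lay in monocyte or neutrophil-like cells (3 and 13 cells), which held no Csf1r UMI.

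C1qa-positive cells held lower levels of the macrophage genes outside the macrophage-like cluster than inside it. As that cluster was named from macrophage markers, this is a description only. The 21, 29 and 102 cells outside held 9, 116 and 46 C1qb UMIs, 1, 22 and 4 Csf1r UMIs, 1, 21 and 1 Mrc1 UMIs and 0, 31 and 4 Fcrls UMIs. Whether they are more like other cell classes was not tested. Apoe stood at 57.9, 228 and 115 CPM there, far below the macrophage-like cluster. Of the 29 cells for the library labelled Tbx1 neo2/neo2 2 had 10 or more C1qa UMIs. Apoe was also found in stroma, at 28.1, 52.3 and 33.0 CPM in mesenchyme, 40.9, 28.3 and 52.5 CPM in epithelium and 19.3, 111 and 22.1 CPM in endothelium.

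Over all kept cells the macrophage genes were compared without choosing cells. Csf1r stood at 5.12, 12.4 and 5.66 CPM, Mrc1 at 1.89, 8.20 and 3.95 CPM, Fcrls at 2.85, 11.4 and 5.20 CPM, Lyve1 at 0.684, 4.67 and 0.434 CPM and Apoe at 104, 222 and 177 CPM. Il34 alone was lower than control in both other libraries, at 0.940, 0.623 and 0.429 CPM, with log2 ratios of −0.59 (−1.06 to −0.13) and −1.13 (−1.59 to −0.67). Epithelial cells, its main source, were 33.6%, 12.2% and 27.1% of kept cells.

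The C1q genes form a cluster on chromosome 4 of the mouse (GRCm38, GENCODE annotation), all on the minus strand: C1qb (ENSMUSG00000036905) at chr4:136880129-136886187, C1qc (ENSMUSG00000036896) at chr4:136889804-136893065 and C1qa (ENSMUSG00000036887) at chr4:136895917-136898803. Apoe (ENSMUSG00000002985) lies at chr7:19696109-19699188 and Lyve1 (ENSMUSG00000030787) at chr7:110850607-110863239, both on the minus strand. Csf1 (ENSMUSG00000014599) at chr3:107741048-107760469 and Fcrls (ENSMUSG00000015852) at chr3:87250758-87263738 are on the minus strand of chromosome 3. Mrc1 (ENSMUSG00000026712) lies at chr2:14229392-14332057 on the plus strand, over the microRNA gene Mir511 of the same strand. Csf1r (ENSMUSG00000024621) lies at chr18:61100598-61132149 on the plus strand, over Mir6983 and, on the other strand, Hmgxb3. Il34 (ENSMUSG00000031750) lies at chr8:110741829-110805924 on the minus strand and overlaps the antisense genes Gm15894 and Gm15895 of the other strand.

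The genes most like each member of the axis were found over 51 combinations of cluster and library with at least 30 cells, among 14031 genes, by Pearson's r of log2(CPM + 10). Csf1r was most like Igsf6 (0.994), Adgre1 (0.992), Clec4a3 (0.991), Fcgr1 (0.991) and Ms4a6d (0.990), over a range of 6.41 in log2 units. Csf1 was most like Bambi (0.871), Tnks1bp1 (0.861), P3h4 (0.858), L3hypdh (0.856) and Adamts7, over a range of 2.06. Genes much like Il34 included S100a14 (0.913), Krt17 (0.904), 1700024P16Rik (0.890) and Aldh3b2 (0.881), over a range of 0.68, which is narrow. The combinations share clusters and libraries, and the values are a description.

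Spi1 encodes PU.1, whose binding sites hold the core GAGGAA, which is read from the opposite strand as TTCCTC. These letters were sought on both strands in the 250 bases before the start in RefSeq promoter windows of GRCm38.p6, which held 6 of the 10 genes (Mrc1, Fcrls, Csf1, C1qb, C1qc and Apoe) in 8 windows. They were found in 6 of the 8 windows, and in 7639 of 32851 windows of all genes (23.3%). Mrc1 had 3 matches, Fcrls, C1qb and C1qc had 1 each, Apoe had a match in 2 of its 3 windows and Csf1 had none. The windows of C1qb and C1qc, which were both below control in C1qa-positive cells, and of Mrc1, which rose in the library labelled Tbx1 neo2/neo2, are printed on the strand of the gene, 5′ to 3′, up to the start of the gene or short of it, with matches in capitals. They lie at chr4:136886201-136886450 (minus strand), chr4:136893066-136893164 (minus strand) and chr2:14229164-14229391 (plus strand). A match is a description of the letters and not of a bound site.
C1qb: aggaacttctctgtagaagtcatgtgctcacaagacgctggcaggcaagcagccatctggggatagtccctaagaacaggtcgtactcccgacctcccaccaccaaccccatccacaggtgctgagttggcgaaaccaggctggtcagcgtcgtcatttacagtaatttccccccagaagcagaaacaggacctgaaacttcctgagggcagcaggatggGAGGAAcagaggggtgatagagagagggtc
C1qc: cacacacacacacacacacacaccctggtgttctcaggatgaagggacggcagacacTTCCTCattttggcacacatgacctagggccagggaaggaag
Mrc1: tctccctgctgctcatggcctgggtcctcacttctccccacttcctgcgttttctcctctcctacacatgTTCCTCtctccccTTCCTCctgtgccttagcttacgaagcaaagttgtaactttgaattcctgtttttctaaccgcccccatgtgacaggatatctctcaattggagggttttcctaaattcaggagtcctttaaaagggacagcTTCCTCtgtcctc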

How the data were processed

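The authors deposited raw UMI counts per gene and cell barcode for 3 libraries, made with Cell Ranger 3.0.0 on the mm10 genome, and these counts were used as they stand. With R 4.3.3, Matrix 1.6.5 and SeuratObject 5.2.0, Seurat 5.3.0 clustered the kept cells by anchor integration on 2000 variable genes without the 10 members, 30 components and resolution 0.3, with seed 1. A cluster was named when at least 3 markers of a class were at least 2-fold above the other clusters and in at least 10% of its cells. The naming rule for clusters of few UMIs was relaxed after the data were seen, so that macrophage markers among the 10 leading genes count. The name of the macrophage-like cluster, and the values given for it, depend on that change. Likely doublets were marked, and kept, with Scrublet in scanpy 1.11.5 (anndata 0.12.19) at 0.8% per 1000 barcodes.

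UMIs of a gene were summed over the cells of a set and divided by all their UMIs, in CPM, with exact Poisson and binomial 95% intervals (Python 3.11.15, numpy 2.4.6, scipy 1.17.1, pandas 2.3.3; figures with matplotlib 3.10.9). Intervals of ratios are conditional binomial. Genes with at least 30 UMIs in a comparison were called at 2-fold with 0.5 UMI added to both sums, and list medians use the same. Ranked genes had at least 300 UMIs, with 30 in each compared library. A count of 0 is given with the level that 3 counts would have. With 1 library per genotype no test was made. The code was tested on simulated data. The members and lists were chosen with earlier results of these data known. Alternatives changed the C1qa threshold, the cell filters, the depth, the scaling, the clustering and the gene filter.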

Additional observations from a re-analysis of the deposited data

Results flagged for a closer look

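UMIs of some members were found in the barcodes that the filters left out, which the report does not use, where the control library had none or few. Left-out barcodes held, for the library labelled Tbx1 neo2/neo2, 19 C1qa, 40 C1qb, 18 C1qc, 8 Lyve1 and 15 Fcrls UMIs, against 0 of each in the control library. They held 211 Apoe UMIs there and 82 in the Foxn11089/1089 library, against 8 in the control library. The left-out barcodes numbered 478, 243 and 675. The difference was not tested.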

How the results depend on the processing

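Of the main results, 122 values under an alternative kept their direction and size, 21 moved and 1 reversed. Among the single-gene values 175 kept theirs, 81 moved and 3 reversed. The cause was not tested for any of the changes below.

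With cells of at least 2000 UMIs, the share of C1qa-positive cells in the library labelled Tbx1 neo2/neo2 went from 1.31 to 1.79 times control. Thinned to 2000 UMIs it was 1.82 times. Thinning also moved log2 ratios of that library: Apoe in other Ptprc-positive cells from 0.12 to 0.58, Csf1r there from 0.55 to 1.76, Csf1 in mesenchyme from −0.07 to 0.31, Csf1 in endothelium from 0.34 to −1.18 and Il34 in epithelium from −0.14 to −2.24. In the Foxn11089/1089 library it moved Csf1 in endothelium from −0.08 to −1.37 and reversed Lyve1 in C1qa-positive cells from −0.80 to 0.022. Thinned ligand values rest on few UMIs, and no change is read from them.

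The number of members past 2-fold in C1qa-positive cells, for the library labelled Tbx1 neo2/neo2, went from 4 of 9 to 2 of 8 with at least 2 C1qa UMIs, 2 of 8 with at least 3, 2 of 9 with the mean of per-cell CPM and 1 of 9 with size factors. In the Foxn11089/1089 library it went from 0 of 9 to 1 of 9 with the mean of per-cell CPM (up), 1 of 9 with size factors (down) and 1 of 10 with genes of at least 10 UMIs (down). The share of all genes past 2-fold is not given for these alternatives. A change in these counts is therefore not read as one of the members rather than of all genes.

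Apoe in other Ptprc-positive cells went, for the library labelled Tbx1 neo2/neo2, from 0.12 to 0.26 with the mean of per-cell CPM and reversed to −0.29 with size factors. In the Foxn11089/1089 library it went from −1.02 to −1.17 without likely doublets and −1.42 with size factors. Size factors moved Csf1 in mesenchyme of the library labelled Tbx1 neo2/neo2 from −0.07 to −0.41.

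Alternatives chosen after seeing the data were run for both comparisons, and the main results they moved and the values they reversed are those of the Foxn11089/1089 library. In the macrophage-like cluster alone its share of C1qa-positive cells went from 1.24 to 0.928 times control. Without likely doublets in that cluster 1 of 8 members was past 2-fold (up), and Csf1r reversed from −0.53 to 0.17 and Lyve1 from −0.80 to 0.16. For those cells too the share of all genes past 2-fold is not given.

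Over all alternatives in the library labelled Tbx1 neo2/neo2, Mrc1 stayed between 0.47 and 1.41, Lyve1 between 1.88 and 2.84 and Fcrls between 0.77 and 1.24. In the Foxn11089/1089 library C1qb stayed between −1.04 and −0.29, C1qc between −0.98 and −0.22, Apoe between 0.15 and 1.01, and Il34 in epithelium between −1.34 and −1.12. Depth limits the ligands, for which endothelium of the control library held 8 Csf1 UMIs. With 1 library per genotype, differences between embryos or between preparations cannot be told from genotype.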
